A study of Mus musculus with 4 samples.

Results

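Immediate early response genes were followed across the cells of transplanted mouse hearts. The 10 genes were Fos, Fosb, Jun, Junb, Egr1, Egr3, Atf3, Ier2, Btg2 and Dusp1, taken by symbol from the 30905 genes of the deposited matrix, and all 10 were found. The hearts had been placed in the abdomen of C57BL/6J recipients and collected on day 5 posttransplant. The 2 allogeneic grafts came from Balb/C donors and the 2 syngeneic grafts from C57BL/6J donors, and the mice were young adult males by the study's methods. The cells came from minced tissue digested with warm enzyme solution and were profiled by droplet single-cell RNA-seq, in which a unique molecular identifier (UMI) marks each captured transcript. The merged matrix told its 4 libraries apart only by a barcode suffix from 1 to 4, and no source used here pairs a suffix with a graft. The cells were therefore treated as 1 pooled sample described by library, allogeneic and syngeneic grafts were not compared, and no value has replicates or a test.

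Immediate early genes are transcribed within minutes of a stimulus by factors that are already in the cell, so new protein synthesis is not needed. Fos, Fosb, Jun, Junb and Atf3 encode leucine zipper proteins that pair with each other and bind AP-1 and cAMP response elements, and Egr1 and Egr3 encode zinc finger factors. Ier2 encodes a nuclear regulator, Btg2 an antiproliferative protein, and Dusp1 a phosphatase that switches off the mitogen-activated kinases which induce such genes. The same genes are known to be induced when tissue is cut and digested. The part of digestion in the levels below was not tested.

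The promoters were searched for elements known from the induction of this family, and 4 are printed here because they hold the longer matches or more than 1 kind of match. RefSeq sequence on GRCm38.p6 was given for 7 of the 10 genes, namely Fos, Fosb, Jun, Junb, Atf3, Btg2 and Dusp1. The 250 bases before each start were searched on both strands. The motifs were the cAMP response element TGACGTCA, its shorter part TGACG (which also counts inside the full element), the AP-1 site TGACTCA, the TATA box TATAAA, the EGR site GCGNGGGCG with T or G at N, and the CArG box. Capitals mark matches in the sequences, written 5′ to 3′ along each gene's strand.
Fos, chr12:85473640-85473889, plus strand: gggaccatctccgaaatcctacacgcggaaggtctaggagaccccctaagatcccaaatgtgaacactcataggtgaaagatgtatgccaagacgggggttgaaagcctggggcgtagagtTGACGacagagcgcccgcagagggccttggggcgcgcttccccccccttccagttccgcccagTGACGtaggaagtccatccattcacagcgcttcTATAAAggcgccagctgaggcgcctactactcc
Fosb, chr7:19310046-19310295, minus strand: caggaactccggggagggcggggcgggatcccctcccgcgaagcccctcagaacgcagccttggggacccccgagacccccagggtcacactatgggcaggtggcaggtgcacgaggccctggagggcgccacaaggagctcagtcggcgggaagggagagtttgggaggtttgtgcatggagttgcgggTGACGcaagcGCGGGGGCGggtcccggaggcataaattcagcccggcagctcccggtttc
Btg2, chr1:134079156-134079405, minus strand: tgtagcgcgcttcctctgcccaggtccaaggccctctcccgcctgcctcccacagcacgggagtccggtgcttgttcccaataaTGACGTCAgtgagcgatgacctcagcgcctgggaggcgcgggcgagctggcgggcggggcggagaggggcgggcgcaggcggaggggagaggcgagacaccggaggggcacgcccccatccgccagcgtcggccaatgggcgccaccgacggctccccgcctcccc
Dusp1, chr17:26508473-26508722, minus strand: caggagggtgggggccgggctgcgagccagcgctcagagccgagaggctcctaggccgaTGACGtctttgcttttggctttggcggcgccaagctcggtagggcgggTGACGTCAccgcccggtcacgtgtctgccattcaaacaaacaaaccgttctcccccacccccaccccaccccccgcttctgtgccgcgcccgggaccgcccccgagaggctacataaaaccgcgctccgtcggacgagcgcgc

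The short element TGACG stood in 6 of the 7 promoters, all but Jun, and in 17.7% of the 32817 promoter windows of the same length. The full element stood in Btg2, beginning 166 bases before the start, and in Dusp1, beginning 143 bases before it, and in 1.55% of all windows. In Fos the short element began 129 and 66 bases before the start and a TATA box 33 bases before it, a box that 12.4% of windows held. Fosb held an EGR site 50 bases before its start, which 3.06% of windows held, and its short element began 60 bases before the start. No AP-1 site or CArG box was matched in the 7 windows, against 4.46% and 1.47% of all windows. Sites more than 250 bases before a start, and the promoters of Egr1, Egr3 and Ier2, were not searched. A match is a description of these letters and was not linked to binding.

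Of 53824 deposited cells, 42395 were kept after filters on detected genes, mitochondrial UMIs and doublets. The 4 libraries gave 9358 to 12496 kept cells, with a median of 4564 to 11897 UMIs per cell. Any pair of libraries shared 40 to 60 barcode sequences. Clusters were built without the 10 genes, related immediate early genes and heat shock genes, so these genes did not define the classes. Of 28 clusters, 25 were named after marker genes into 11 classes and 3 with 3298 cells stayed unnamed. The defining markers were higher in their classes than in the rest, such as Cdh5 at 1213 CPM (counts per 1000000 non-mitochondrial UMIs) in endothelial-like cells against 88.1 CPM in the rest, or Myh11 at 2987 against 13.1 CPM in smooth muscle-like cells. Some differed less, such as Naaa at 620 against 176 CPM and Zbtb46 at 23.8 against 16.2 CPM in dendritic-like cells. A single library supplied over 90% of the cells in 12 of the 28 clusters. The endothelial-like and fibroblast-like cells of different libraries lay mostly in different clusters. So did macrophage-like and granulocyte-like cells, except that those of libraries 1 and 3 mostly shared 1 cluster. For macrophage-like cells it held 427 of 539 cells of library 1 and 1064 of 1144 of library 3. For granulocyte-like cells it held 83 of 94 and 254 of 259. The pericyte-like, smooth muscle-like, T/NK-like and cardiomyocyte-like cells of all libraries formed 1 cluster each. Cardiomyocyte-like, dendritic-like and erythroid-like cells were shallow, with a median of 1299, 1204 and 1181 UMIs. Of the 1259 dendritic-like cells, 1097 came from library 4, and only these were shallow, at a median of 1080 UMIs. Those of libraries 1 and 3 had medians of 16872 and 13596.

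With libraries pooled, vessel wall cells and fibroblasts carried the most immediate early transcripts. Lymphocytes were among the classes with the fewest, together with cardiomyocytes once doublets were removed. With the 10 genes summed over all libraries, the level was 16887 CPM in pericyte-like cells (exact Poisson 95% interval 16827 to 16947), 16808 in smooth muscle-like cells (16729 to 16889) and 14679 in endothelial-like cells. The first 2 intervals overlapped. These intervals cover counting error only. Fibroblast-like cells held 10936 CPM, granulocyte-like cells 7288 and macrophage-like cells 5828. Dendritic-like cells held 4479 CPM, B-like cells 4234, cardiomyocyte-like cells 3404 and T/NK-like cells 2503, a ratio of 6.75 between the highest and the lowest class. The cardiomyocyte-like value depended on doublet removal, since it was 7927 CPM, at rank 5 of 11 classes, with doublet-marked cells kept. The dendritic-like value also moved, to 5726.5 CPM without a mitochondrial limit and 6130 at resolution 1.6, where macrophage-like cells held 5769. By library, dendritic-like cells had 6204 CPM in library 1, 5553 in library 3 and 3762 in library 4, which gave most of them. These cells were unlike in depth, with medians of 16872, 13596 and 1080 UMIs in libraries 1, 3 and 4. The erythroid-like value of 5560 CPM was not a stable one, since it was 778 to 825 CPM at other clustering resolutions, 10877 CPM with the 10 genes and related lists among the variable genes and 11658 with per-cell means.

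Libraries differed in level and in cell makeup, so the order was also read within each library. Pericyte-like cells were highest in libraries 1 and 3, at 27371 and 13912 CPM. Smooth muscle-like cells were highest in library 2, at 13379 CPM. Neither class reached 50 cells in library 4, the minimum for a value by library, and there granulocyte-like cells were highest at 13798 CPM and endothelial-like cells next at 7753. The lowest class changed with the library. It was cardiomyocyte-like in library 1 (3291 CPM) and library 3 (3798), macrophage-like in library 2 (3555) and T/NK-like in library 4 (2196). The pooled T/NK-like value rests on library 4, which gave 1406 of the 1866 cells, whereas libraries 1, 2 and 3 had 5442, 4355 and 4210 CPM. Without library 1 the highest pooled class was smooth muscle-like and the ratio to T/NK-like cells was 5.79.

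**Figure D1:**
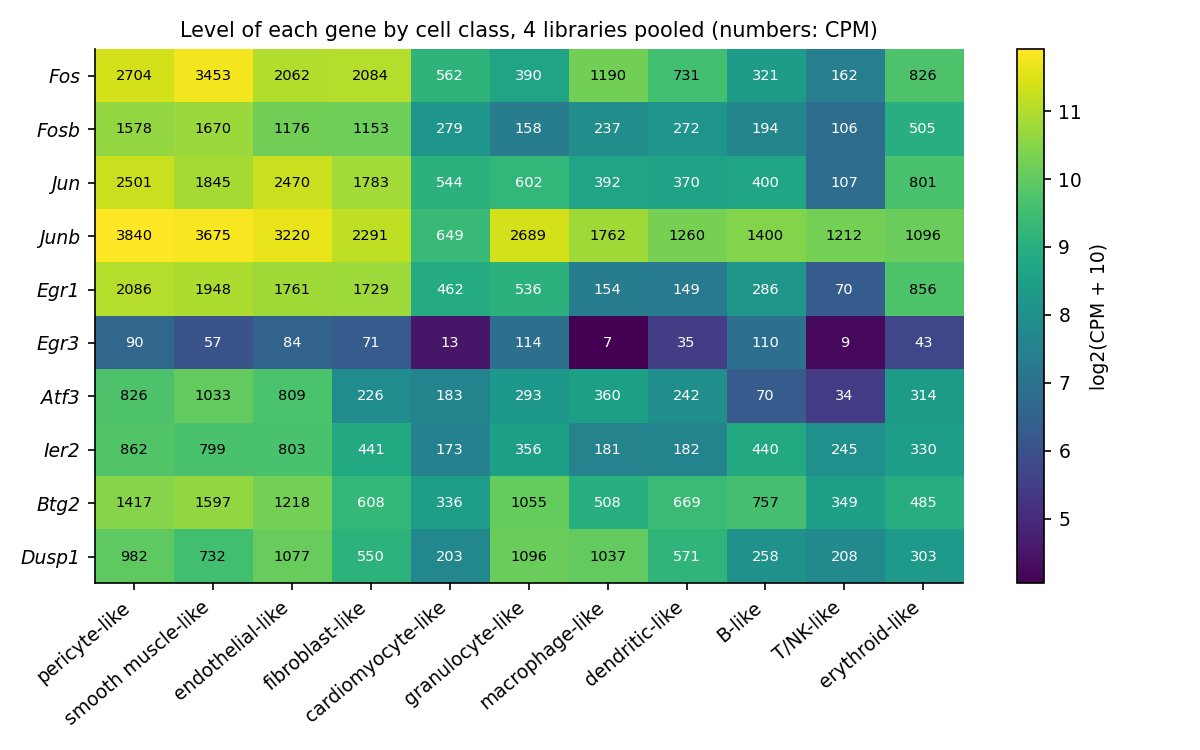
Level of each of the 10 genes (rows) in the 11 cell classes (columns), with all libraries pooled; color gives log2(CPM + 10) and the printed numbers are CPM. The left 4 columns hold the highest levels for Fos, Fosb, Jun and Egr1, while Dusp1 and Egr3 are highest in granulocyte-like cells.

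Among the AP-1 genes, Fos, Fosb, Jun and Atf3 separated the classes strongly and Junb weakly. Fos, the founding AP-1 gene, had 3453 CPM in smooth muscle-like, 2704 in pericyte-like, 2084 in fibroblast-like and 2062 in endothelial-like cells, against 162 in T/NK-like cells. Its order was led by smooth muscle-like cells in libraries 1, 2 and 3, at 4707, 2997 and 2821 CPM. In macrophage-like cells Fos held 1190 CPM pooled and 2226, 462, 1140 and 1243 CPM in libraries 1 to 4. Fosb, a close relative of Fos, was 1670 CPM in smooth muscle-like and 1578 in pericyte-like cells and 237 in macrophage-like cells. Jun, the partner of Fos in AP-1, had 2501 CPM in pericyte-like and 2470 in endothelial-like cells, with overlapping Poisson intervals, and 107 CPM in T/NK-like cells. Atf3, a stress-induced repressor of the same family, had 1033 CPM in smooth muscle-like, 826 in pericyte-like and 809 in endothelial-like cells. In fibroblast-like cells, which lay close to endothelial-like cells for Fos and Fosb, Atf3 was 226 CPM. The ratio of the highest to the lowest class was 21.3 for Fos, 15.7 for Fosb, 23.4 for Jun and 30.5 for Atf3. The lowest pooled class was T/NK-like each time. Its value rests on library 4, where Jun was 81.3 CPM against 324, 308 and 257 in libraries 1 to 3. Within libraries, T/NK-like cells were lowest for Atf3 throughout. Other classes were lowest for Fos in libraries 2 and 3, Fosb in libraries 1 to 3 and Jun in library 1. Without library 4 the log2 ratio of endothelial-like to T/NK-like cells fell from 3.59 to 2.38 for Fos, 3.35 to 2.41 for Fosb, 4.41 to 3.04 for Jun and 4.22 to 2.90 for Atf3.

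Junb had a ratio of 5.92, from 3840.0 CPM in pericyte-like to 649 in cardiomyocyte-like cells. Granulocyte-like cells, low in Fos and Fosb, held 2689 CPM of Junb, between endothelial-like cells at 3220 and fibroblast-like cells at 2291. In T/NK-like cells Junb stood at 1212 CPM pooled and at 2109, 1519, 1886 and 1122 CPM in libraries 1 to 4. In library 4 granulocyte-like cells had more Junb than any other class with at least 50 cells, at 3951 CPM, and macrophage-like cells were next at 1693.

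The zinc finger genes gave different orders from each other. Egr1, a factor induced by growth factors and stretch, was at 2086 CPM in pericyte-like, 1948 in smooth muscle-like, 1761 in endothelial-like and 1729 in fibroblast-like cells. Pooled, it was 154 CPM in macrophage-like and 149 in dendritic-like cells, with overlapping intervals, while the granulocyte-like cells, also myeloid, held 536 CPM. That contrast did not hold in every library. Macrophage-like cells held 792, 111.5, 323 and 84.3 CPM in libraries 1 to 4, against 403, 487, 322 and 876 in granulocyte-like cells. The pooled macrophage-like value rests on library 4, which gave 5905 of the 8588 cells. Egr1 was lowest, with libraries pooled, in T/NK-like cells at 70.4 CPM, a ratio of 29.6 across classes. That low value rests on library 4, at 52.4 CPM against 260, 187 and 132 in libraries 1 to 3. Without library 4 the log2 ratio of endothelial-like to T/NK-like cells fell from 4.46 to 3.11. The lowest class for Egr1 was macrophage-like in library 2 (111.5 CPM) and dendritic-like in library 3 (122). Egr3, which is known for its induction by antigen receptors, was highest in granulocyte-like cells at 114 CPM (108 to 119) and in B-like cells at 110 (93.7 to 129), and these intervals overlapped with each other. The granulocyte-like level was 34.6, 110.1, 72.6 and 160 CPM in libraries 1 to 4, from 14 UMIs in library 1, and was the highest of the classes in library 2 alone. Endothelial-like cells led in library 1 at 175 CPM, fibroblast-like cells in library 3 at 82.7 and B-like cells in library 4. It was 89.8 CPM in pericyte-like and 84.0 in endothelial-like cells, 8.86 in T/NK-like cells and 6.57 in macrophage-like cells. In B-like cells Egr3 was 179 CPM in library 4 (146 to 217) and 67.2 in library 3 (45 to 96.5), from 103 and 29 UMIs. The B-like class held 323 cells in all.

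Ier2, Btg2 and Dusp1 varied least between classes, with ratios of 4.97, 4.76 and 5.41, and all 3 were lowest in cardiomyocyte-like cells, a class whose level depended on doublet removal. The cardiomyocyte-like intervals overlapped those of T/NK-like cells for Btg2 (336 and 349 CPM) and Dusp1 (203 and 208 CPM). Ier2 ranged from 862 CPM in pericyte-like to 173 in cardiomyocyte-like cells, and the values of dendritic-like, macrophage-like and cardiomyocyte-like cells had overlapping intervals. Btg2 was highest in smooth muscle-like cells at 1597 CPM and was 1055 in granulocyte-like, 757 in B-like and 669 in dendritic-like cells, above the 608 of fibroblast-like cells. Dusp1 had 1096 CPM in granulocyte-like and 1077 in endothelial-like cells, with overlapping intervals, 1037 in macrophage-like and 982 in pericyte-like cells. Within library 1 macrophage-like cells led the order of Dusp1 at 1644 CPM, in libraries 2 and 3 endothelial-like cells did at 1199 and 985, and in library 4 granulocyte-like cells at 3963.

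Endothelial-like and T/NK-like cells could be set against each other within each of the 4 libraries. A gene counted as higher at 2-fold or more with 10 CPM added to both levels, among genes whose mean of the levels was at least 10 CPM, and all 10 genes passed that minimum each time. In library 1, 9 of the 10 were higher in endothelial-like cells, against 19.4% of all genes compared. In library 2 it was 7 of 10 against 21.3%, in library 3 7 of 10 against 19.6%, and in library 4 7 of 10 against 19.0%. The median ratio of the 10 genes was 5.52, 3.57, 4.71 and 4.42 in libraries 1 to 4. Fos, Fosb, Jun, Egr1 and Atf3 were higher in all 4 libraries. Jun was 2048 against 308 CPM in library 2, a ratio of 6.48, and 1588 against 81.3 in library 4, a ratio of 17.5. Junb reached 2-fold only in library 1, at 2.32, and was 1.40 to 1.77 in the other 3. Btg2 likewise reached it in library 1, at 2.70, and was 1.14 in library 2, 1.32 in library 3 and 1.64 in library 4. Dusp1 was 1.91 in library 1 and 2.57 to 4.16 in the others.

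The libraries differed strongly within classes as well. The 10 genes summed to 19658 CPM over the kept cells of library 1, 8224 in library 2, 10420 in library 3 and 5362 in library 4, and these totals depend on which cells each library held. Within classes, library 1 was highest in 8 of the 10 classes in which it had at least 50 cells. The exceptions were cardiomyocyte-like cells, at 3291, 4155 and 3798 CPM in libraries 1 to 3, and granulocyte-like cells. Egr1 and Fosb were highest in library 1 in 9 of 10 classes, and Dusp1 in 6 of 10.

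Pericyte-like cells are described in full as the class with the highest summed level, with 559, 591 and 557 cells of libraries 1, 2 and 3 in 1 cluster. Their ratio of library 1 to library 3, 1.97, was the highest of 15 clusters compared, and in T/NK-like and cardiomyocyte-like cells, which also formed 1 cluster each, it was 1.29 and 0.867. Their summed level was 27371 CPM in library 1 (27222 to 27520), 12794 in library 2 (12706 to 12883) and 13912 in library 3 (13820 to 14004). No interval overlapped, and the cells of library 1 stood far above those of the other 2 libraries. Fos was 4543, 2025 and 2066 CPM in libraries 1 to 3, Egr1 3870, 1369 and 1574, and Atf3 1589, 434 and 683. Dusp1 was close to level, at 1117, 953 and 932 CPM. Over library 2, 7 of the 10 genes were at least 2-fold higher in library 1, against 4.63% of all genes compared. Over library 3 it was 6 of 10, against 0.582%. The median ratios were 2.24 and 2.19, where the median over all genes lay at a log2 ratio of 0.05 and -0.004. The genes short of 2-fold over both libraries were Junb, Ier2 and Dusp1, at ratios of 1.17 to 1.83.

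Smooth muscle-like and endothelial-like cells had a like order of libraries. Smooth muscle-like cells had 24459, 13379 and 13605 CPM in libraries 1 to 3, with 4 of 10 genes higher in library 1 than in library 2 (5.50% of all genes) and 5 of 10 higher than in library 3 (0.892%). Endothelial-like cells had 24592, 11621, 12493 and 7753 CPM in libraries 1 to 4, a ratio of 3.17 from highest to lowest that fell to 1.61 without library 1. A cluster of 1022 cells that matched 3 of 10 endothelial markers, all of library 2, was counted among them, and without it library 2 had 11923 CPM. There 6 of 10 genes were higher in library 1 than in library 2 (4.99% of all genes) and 5 of 10 than in library 3 (0.959%). Egr1 showed the widest spread, at 3928, 955, 1324 and 627 CPM, a ratio of 6.27. Dusp1 was 1155, 1199, 985 and 748 CPM, and was highest in library 2.

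Of the classes compared, fibroblast-like and macrophage-like cells had the most of the 10 genes higher in library 1 than in library 2. In both classes the cells of these libraries lay mostly in different clusters. In fibroblast-like cells the sum was 19401, 5636, 9524 and 6677 CPM in libraries 1 to 4. Over library 2, 9 of the 10 genes were higher in library 1, all but Egr3, against 14.0% of all genes, and over library 3 it was 5 of 10, against 2.25%. The fibroblast-like cells of library 2 were nearly all of 1 cluster (1024 of 1043 cells) that matched only 4 of 10 fibroblast markers and was led by Prg4, Cxcl5 and Ptx3. Without it 19 cells remained, at 8171 CPM. In macrophage-like cells the sum was 11527, 3555, 7290 and 5531 CPM. All 10 genes were higher in library 1 than in library 2, against 8.48% of all genes, and 2 of 10, Fosb and Egr1, were higher than in library 3, against 0.804%. Of the macrophage-like cells, 847 of the 1000 in library 2 lay in 1 cluster and 427 of the 539 in library 1 in another. Within these clusters the ratio of library 1 to library 2 was 2.38 and 2.23, against 3.24 over the class. In pericyte-like cells that ratio was 2.14.

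**Figure D2:**
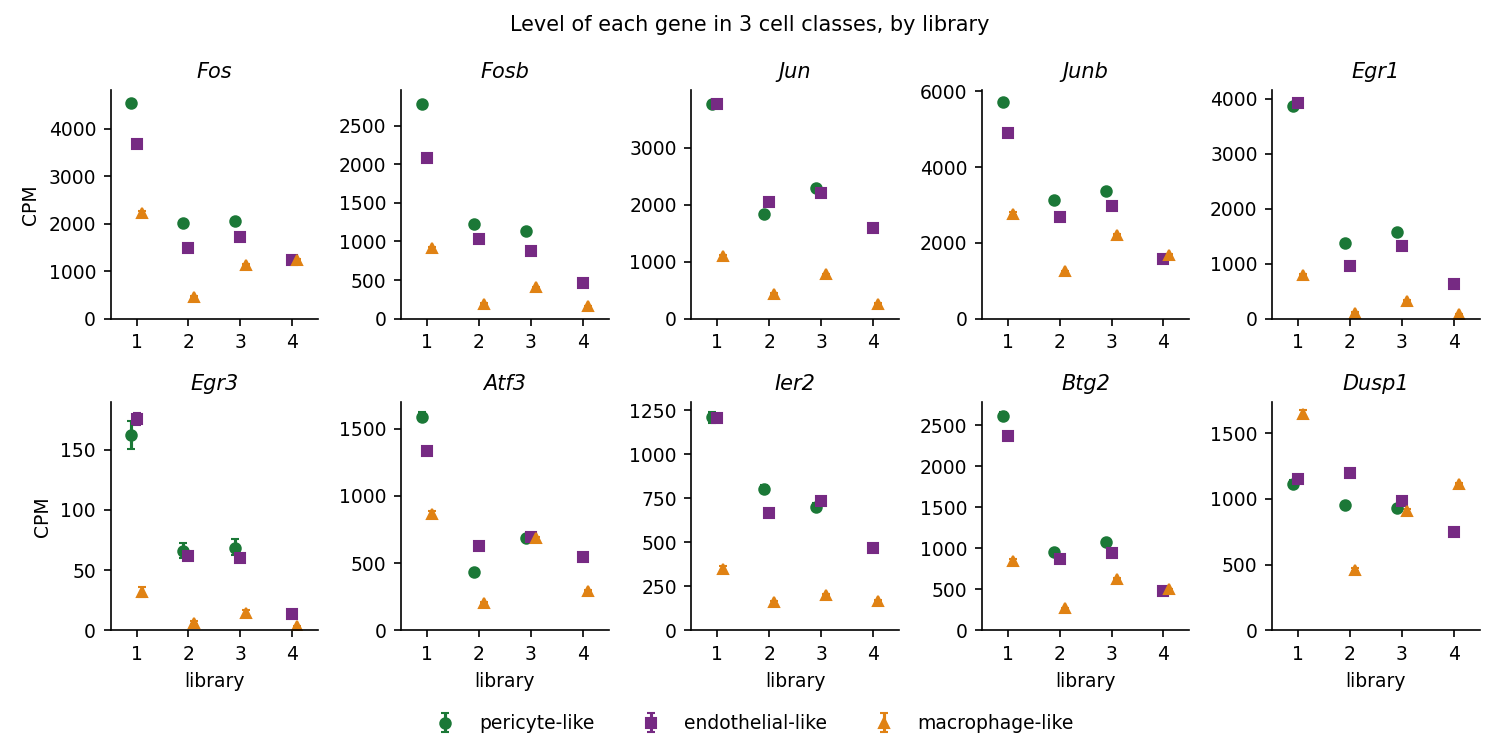
Level of each gene in CPM (vertical axes, each from 0) by library (horizontal axes) in pericyte-like, endothelial-like and macrophage-like cells; each point is 1 class in 1 library with at least 50 cells and bars are exact Poisson 95% intervals. Egr1, Fosb, Btg2 and Egr3 drop from library 1 to the other libraries in the vascular classes, while Dusp1 changes little there.

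Because cells of different libraries often lay in different clusters, libraries were also compared within clusters that held at least 50 cells of both. Between libraries 1 and 3 there were 15 such clusters, and the sum was higher in library 1 in 14 of them. The median ratio was 1.44, with a range of 0.867 to 1.97. The lowest ratio was that of cardiomyocyte-like cells and the highest that of pericyte-like cells. Between libraries 1 and 2 there were 7 such clusters, and library 1 was higher in 5, with a median ratio of 1.83 and a range of 0.792 to 2.38. None of these 7 was endothelial-like or fibroblast-like, so those classes were not compared within clusters between libraries 1 and 2. Between libraries 2 and 3 the sum was higher in library 2 in 3 of 7 clusters, with a median ratio of 0.983. In the endothelial-like cluster that held most of library 1, the cells of library 1 had 25807 CPM and those of library 3 had 15010. All 10 genes were higher in library 1 when any difference counted. In the fibroblast-like cluster led by library 1 the values were 22577 and 12893 CPM, again with all 10 genes higher. In the other fibroblast-like cluster, led by library 3, they were 10339 and 8960 CPM, with 8 of 10 higher. These counts of genes within clusters used no fold minimum, and the share over all genes was not computed for them.

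In most classes heat shock genes did not share the order of libraries seen for the 10 genes. Cardiomyocyte-like, dendritic-like and B-like cells were exceptions, with the same order for both sums. A list of 13 heat shock and chaperone genes, which are also induced in digested tissue, was lowest in library 1 in 8 of 10 classes. Cardiomyocyte-like cells are among these 8, and there the 10 genes were lowest in library 1 as well. The list was highest in library 2 in 7 of 8 classes. Each count covers classes with at least 50 cells of the library named. In pericyte-like cells its sum was 10758, 14695 and 12485 CPM in libraries 1 to 3. Within clusters, its sum was lower in library 1 than in library 3 in 14 of 15 and lower than in library 2 in 6 of 7. Hspa1a, an inducible chaperone, was 1338, 2207 and 2001 CPM in pericyte-like cells of libraries 1 to 3, and its near-identical copy Hspa1b, whose reads cannot be fully told apart from it, was 558, 1396 and 1385. In pericyte-like cells none of the 13 was at least 2-fold higher in library 1 than in library 2 or 3. The shares of all genes that were higher were 4.63% and 0.582%. Of the 13, 4 and 1 were at least 2-fold lower, against 3.39% and 0.959% of all genes. The median mitochondrial share of the pericyte-like cells was 7.95%, 6.01% and 8.36%, and their median depth 5093, 6195 and 7249 UMIs. The part of heat shock, mitochondrial share or depth in the library difference was not tested.

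**Figure D3:**
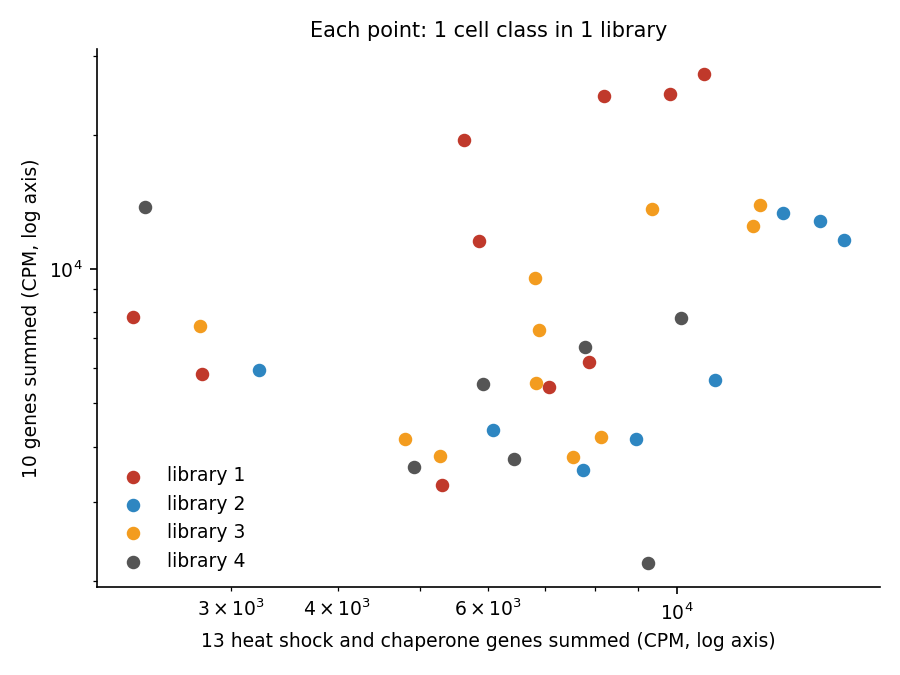
Summed level of the 10 genes (vertical axis) against the summed level of 13 heat shock and chaperone genes (horizontal axis), both in CPM on log axes; each of the 36 points is 1 cell class in 1 library with at least 50 cells. The vascular and fibroblast points of library 1 lie at the top and to the left of the points with the same classes in libraries 2 and 3.

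The 32 further immediate early genes were more mixed than the 10. In pericyte-like cells 30 of the 32 passed the level minimum against library 2, where 5 were at least 2-fold higher in library 1 (Fosl2, Klf2, Zfp36, Csrnp1 and Socs3) and 2 lower (Fosl1 and Ctgf), against 4.63% and 3.39% of all genes. Their median ratio was 1.17. Against library 3, 29 passed and 2 were higher, Klf2 and Arc, against 0.582% of all genes, with a median ratio of 1.41. Among the most abundant of the list, the inhibitor gene Nfkbia was 1811, 2780 and 1529 CPM in pericyte-like cells of libraries 1 to 3, and the AP-1 gene Jund was 3747, 2164 and 2072. Ier3 was 1540, 1363 and 1257 CPM and Zfp36, which encodes an mRNA-destabilizing protein, 2339, 925 and 1245. Library 2 was highest for Nfkbia and library 1 for the other 3. Of the 16 upstream kinases and factors, 15 passed in each comparison in pericyte-like cells and none was 2-fold different. Of all genes compared, 4.63% were higher and 3.39% lower over library 2, and 0.582% and 0.959% over library 3. None of 15 lies near these shares. The most abundant of the upstream list in all cells were Nfkb1, Mapk3, Map2k2 and Elk3. Mapk3, an ERK kinase, was 213, 192 and 253 CPM.

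Hypoxia genes had the reverse order in macrophage-like cells. Of 10, 8 passed the minimum between libraries 1 and 2, and 6 were at least 2-fold lower in library 1 (Vegfa, Slc2a1, Bnip3, Egln3, Ankrd37 and Ero1l), against 4.93% of all genes lower. Summed over the list, macrophage-like cells held 216 CPM in library 1, 1011 in library 2, 274 in library 3 and 598 in library 4. Between libraries 1 and 3, 6 of the list passed and none was 2-fold different. That lies near the shares of all genes, 0.804% higher and 0.277% lower. In endothelial-like cells 1 gene of the list, Slc2a1, was at least 2-fold lower in library 1 than in library 2, against 3.90% of all genes. The most abundant of the list in all cells were Ndrg1, Slc2a1, Vegfa and Ero1l. The part of hypoxia in the difference was not tested.

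Besides cardiomyocyte-like cells, granulocyte-like cells did not have their highest level in library 1. Their sum was 7806 CPM in library 1 (94 cells), 5943 in library 2 (2748 cells), 7444 in library 3 (259 cells) and 13798 in library 4 (766 cells). Dusp1 was 3963 CPM in library 4 (3882 to 4045) and 1188, 522 and 979 in libraries 1 to 3, so that no other class and library held as much. Fos was 1175 CPM in library 4 and 217 in library 2, and Btg2 2128 and 850. Jun and Fosb had the reverse order, at 391 CPM in library 4 against 652 in library 2 and at 111 against 147. In all, 4 of 10 genes were at least 2-fold higher in library 4 than in library 2, namely Fos, Ier2, Btg2 and Dusp1, against 12.0% of all genes. Of the further immediate early genes 9 of 28 were higher in library 4, among them Nr4a1, Zfp36, Ptgs2 and Socs3, and 3 were at least 2-fold lower, Fosl1, Cyr61 and Ctgf, against 12.0% of all genes higher and 6.18% lower. The 2 libraries were held by different clusters, with 760 of the 766 cells of library 4 in 1 and 2040 of the 2748 of library 2 in another. A further granulocyte-like cluster held 708 cells of library 2, besides 83 of library 1 and 254 of library 3. In its library 2 cells Jun was 1957 CPM, against 453 in the main cluster of library 2. The heat shock sum was 10345 CPM against 2149.

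Within cells the genes were detected together. To compare cells of unequal depth, each was thinned to 1000 UMIs, which left out 3965 shallower cells of all 42395, from 366 in library 3 to 1909 in library 2. In the 38430 thinned cells the mean number of the 10 genes with a UMI was 4.15, against 6.93 before thinning. No UMI of any was found in 5.10% of cells (exact binomial interval 4.88 to 5.33%), and 42.3% had at least 5 of the 10. The mean was 5.30 in endothelial-like, 5.34 in pericyte-like and 5.48 in smooth muscle-like cells, 3.21 in macrophage-like and 2.04 in T/NK-like cells. By library it was 5.40, 4.05, 4.24 and 3.07. No class was used as a background for free RNA in the droplets, and the part of free RNA in these counts was not tested.

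In endothelial-like cells of library 1, 74.2% had at least 5 of the 10 genes, against 63.2%, 55.6% and 38.2% in libraries 2 to 4. None of the 10 genes was found in 1.38%, 1.23%, 4.19% and 6.99% of them. In fibroblast-like cells 12.6% of those in library 3 had none of the 10 genes, against 4.78% in library 1, and 44.6% against 65.8% had at least 5. The most frequent number in fibroblast-like cells was 6 in library 3 and 7 in library 1. In granulocyte-like cells at least 5 genes were found in 54.7% of cells in library 4 and 21.0% in library 2.

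**Figure D4:**
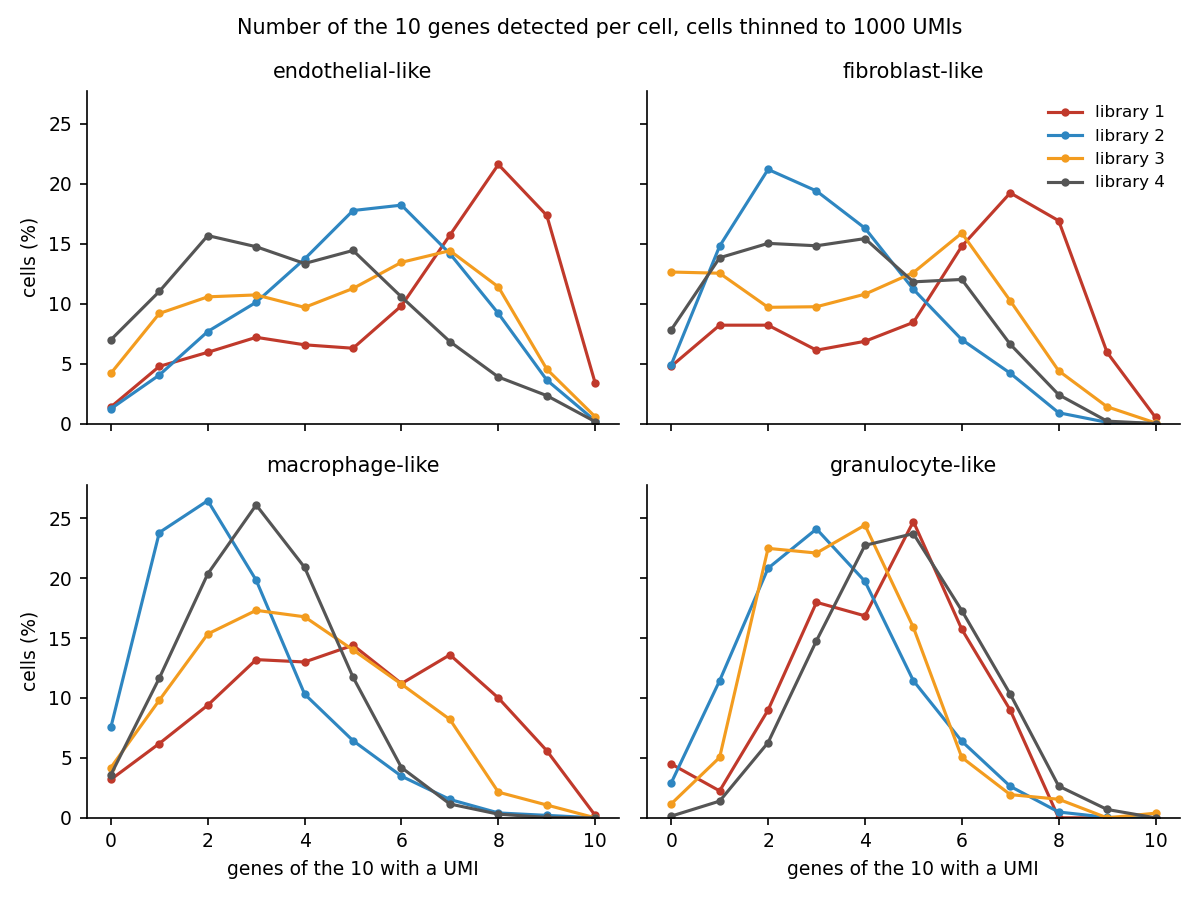
Share of cells in percent (vertical axis) with 0 to 10 of the 10 genes detected (horizontal axis), for cells thinned to 1000 UMIs, in 4 classes; each line is 1 library. In endothelial-like and fibroblast-like cells the line of library 1 peaks at 8 and 7 genes, and in library 3 the fibroblast-like line has high shares both at 0 and at 6.

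Single genes followed the same classes when counted as thinned cells with a UMI. Fos was found in 61.3% of endothelial-like cells (60.4 to 62.1%), 54.6% of macrophage-like and 16.3% of T/NK-like cells, where the unthinned shares were 83.6%, 93.0% and 64.2% at median depths of 5611, 14222 and 8470 UMIs. Egr1 was found in 59.9% of endothelial-like and 12.1% of macrophage-like cells, the latter 46.4, 10.4, 24.6 and 7.11% in libraries 1 to 4. Egr3 was rare, in 7.88% of endothelial-like, 9.73% of granulocyte-like and 0.812% of macrophage-like cells. Junb was found in 74.0% of all thinned cells and in at least 65.6% of the thinned cells of every leukocyte class, from dendritic-like cells upward.

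Pairs of genes met in the same cell more often than the product of their shares. The expected number was built within each class and library and then added up. Over all 45 pairs the observed number exceeded it, with a median ratio of 1.17 and a range of 1.09 to 1.32. In endothelial-like cells Fos and Fosb were found together in 4858 cells against 3933 from the shares, a ratio of 1.24, and Fos with Egr1 in 5572 against 4647, a ratio of 1.20. The median ratio was 1.16 in endothelial-like, 1.16 in pericyte-like and 1.23 in fibroblast-like cells, and 1.08 in granulocyte-like cells, where 41 of 45 pairs were over 1. In erythroid-like cells it was 1.74, the class whose level was not stable. Cells of a class that belong to different clusters can give such a ratio as well, and that part was not tested.

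Depth within a library also moved with the level. In pericyte-like cells of library 1, the tertile of cells with the lowest depth (median 1892 UMIs) had 16624 CPM, the middle tertile 29549 and the deepest 27817. In library 3 the values were 7359, 13751 and 14668 CPM. Endothelial-like cells of library 1 had 16957, 25648 and 25743 CPM. Library 1 stood above libraries 2 and 3 in each tertile of both classes. Macrophage-like cells had the reverse order in library 2, at 5423, 3774 and 3029 CPM from shallow to deep. The same fall was seen in library 3, at 9601, 9480 and 5384 CPM, and in library 4, at 5912, 5778 and 5274. Fibroblast-like cells of library 2 also fell, at 7014, 6319 and 5046 CPM. In library 1 macrophage-like cells had no single direction, at 10897, 15263 and 9621 CPM.

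The likeness of the 10 genes was measured as Pearson's r of log2(CPM + 10) over the 36 combinations of class and library with at least 50 cells. These points share libraries and classes and are not independent, so r is a description. Over the 45 pairs the median r was 0.66, from 0.37 between Egr3 and Atf3 to 0.92 between Jun and Egr1. Fos went with Fosb at 0.89 and with Jun at 0.83, and Junb with Btg2 at 0.86 and Ier2 at 0.81. Dusp1 had its lowest values with Egr3, at 0.38, and with Fosb, at 0.39. With the mean of each class removed, so that only libraries within classes differ, the median was 0.72 and the range 0.35 to 0.89.

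Of 8872 genes compared with the sum of the 10, the closest was Ppp1r15a, a stress-induced phosphatase regulator, at r = 0.92. It was followed by Zfp36 at 0.87, Ddx3x at 0.86, Csnk1e at 0.85, and Csrnp1 and Zfp503 at 0.83. Ppp1r10, Fam168a, Midn and Fam76a completed the first 10, at 0.83 to 0.81. With class means removed the first 10 were Zfp36 at 0.90, Egr2, Ppp1r15a, Cbx7, Klf4, Chd3, Mylip, Crebrf, Ankrd12 and Per3, the last at 0.80. Some of these neighbours were scarce. Zfp503, Per3 and Cbx7 averaged 14.5, 14.6 and 16.6 CPM, close to the 10 CPM added before log2, against 804 for Zfp36. Taken singly, Fos and Fosb were nearest to Klf4 (0.88 and 0.92), Jun to Rhob (0.94), Junb and Ier2 to Ddx3x (0.90 and 0.88), Egr1 to Cped1 (0.90), Atf3 to Zfp36 (0.88), Btg2 to Ddx5 (0.83), Dusp1 to Klf6 (0.85) and Egr3 to Pramef8 (0.76). Genes of the 10 were not allowed as neighbours.

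The fixed lists gave weaker values with the sum of the 10. The further immediate early genes had r = 0.79, and 0.64 with class means removed. The upstream kinases and factors had 0.40 and 0.04, the heat shock genes 0.25 and -0.54, and the hypoxia genes 0.15 and -0.64. The median mitochondrial share had 0.001 and 0.32, and the median depth on a log scale 0.27 and -0.23. The negative values mean that, among libraries of 1 class, heat shock and hypoxia genes tended to be lower where the 10 genes were higher. Not every class followed, although the hypoxia sum was lowest in library 1 in 8 of 10 classes. It was 346, 363 and 358 CPM in pericyte-like cells of libraries 1 to 3, and 295, 278 and 272 in smooth muscle-like cells. In dendritic-like cells the heat shock sum was highest in library 1.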

How the data were processed

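Hearts of 2 allogeneic and 2 syngeneic mouse grafts on day 5 posttransplant were profiled by 10x droplet RNA-seq. Per the labels and methods, the authors aligned reads with Cell Ranger to mm10 and deposited 1 merged matrix of raw UMI counts per gene and cell. The 4 libraries totalled 96020294 to 166079145 UMIs. Retained cells had more than 200 detected genes and a mitochondrial share below 20%, and the 5% of cells of each library most like simulated doublets were removed. Clusters (10 components of 2000 variable genes, 30 neighbours, Leiden resolution 0.8; Python 3.11.15, scikit-learn 1.9.0, leidenalg 0.10.2) were named by marker genes, with at least 3 markers in 10% of cells and 2-fold above the mean of other clusters. Levels are UMIs of a gene over all non-mitochondrial UMIs. The counts come from transcript 3′ ends, and the level of 1 gene was not compared with that of another. The naming of classes and the fold calls were tried on simulated data. There the markers used for naming had themselves been raised and no library differences were set. That trial therefore cannot check the class names in these data. Alternatives covered doublets, the mitochondrial limit, resolution, variable genes, scaling, thinning, added CPM, cell minimum and left-out libraries. The members, lists and comparisons were chosen with earlier results of these data known. Named were the 10 genes, the 10 most like their sum, by either measure, the nearest of each and the 4 most abundant of each list; other list genes and the comparisons between libraries were named after their values were seen.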

Additional observations from a re-analysis of the deposited data

Results flagged for a closer look

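Cells outside the comparisons carried the 10 genes too. The 9169 cells at or over the mitochondrial limit held 9597 CPM of the summed genes (exact Poisson 95% interval 9548 to 9646), and by library 14145, 8245, 9495 and 4646 CPM, against 19658, 8224, 10420 and 5362 CPM in kept cells. Library 1 was highest and library 4 lowest in both sets of cells. The 2231 doublet-marked cells held 10891 CPM (10858 to 10924), and by library 21677, 8662, 10528 and 5911 CPM.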

How the results depend on the processing

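The ratio of the highest to the lowest class was 6.75. It was 5.93 with doublet-marked cells kept, where cardiomyocyte-like cells moved from 3404 to 7927 CPM, 5.02 with per-cell means, 6.65 with mitochondrial UMIs in the total, 6.65 without the 50 most abundant genes and 5.78 with thinned cells. It was 21.4 without a mitochondrial limit, 18.1 at resolution 0.4 and 21.8 at resolution 1.6. In those 3 settings the lowest class was erythroid-like, at 850.0, 825 and 778 CPM. Leaving out 1 library at a time gave 4.98 to 7.79. These ratios do not all compare the same classes. Thinned cells gave smooth muscle-like over cardiomyocyte-like, and leaving out library 4 gave pericyte-like over cardiomyocyte-like. At resolution 0.4 the highest class was endothelial-like, but no pericyte-like or smooth muscle-like class was named there. The ratio of libraries in endothelial-like cells was 3.17, for library 1 over library 4. It was 3.13 with doublet-marked cells kept, 3.27 with per-cell means, 3.11 with mitochondrial UMIs in the total and 3.28 with thinned cells. At resolution 0.4 it was 2.19, but for library 1 over library 2, as library 4 had no value there. Leaving out 1 library gave 1.61 to 3.17, with 1.61 for library 3 over library 4 without library 1. The median r between the 10 genes was 0.66, and 0.55 to 0.70 with 1 library left out. The mean number of genes per thinned cell was 4.15, and 4.18 with doublet-marked cells kept, 4.20 with at least 500 genes per cell, 5.45 after thinning to 2000 UMIs and 3.78 to 4.53 with 1 library left out. Class names were kept when a library was left out. Without the 2 clusters that matched 3 and 4 of 10 markers, a choice made after seeing the data, the first 3 values were 6.75, 3.17 and 0.66. No cell of these clusters entered the 2 ratios among these values, so their staying the same is no check. The fibroblast-like level moved from 10936 to 12397 CPM. The direction of all 10 genes was the same in 150 of 150 alternative values for endothelial-like over T/NK-like cells and in 120 of 120 for library 1 over library 3 in pericyte-like cells. Leaving out library 2, library 4 or the 2 weakly matched clusters could not change that pericyte-like comparison. The settings also share most of their cells, so these counts are not independent checks. The causes of the changes were not tested. No paired analysis was possible because no source used here pairs a library with a graft and no result comes from a test between groups.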
